A study of Mus musculus with 2 samples.

Results

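The genes described here encode the nuclear transport machinery: import and export receptors, the proteins of the nuclear pore, and the small GTPase Ran with its regulators. Members were all genes of the deposited table whose symbol belongs to the Kpna, Kpnb1, Ipo, Tnpo, Xpo, Cse1l, Nup (with a number), Tpr, Ndc1, Pom121, Aaas, Ran, Ranbp, Rangap1, Rcc1 or Nutf2 names, a rule on names that reads no measured value, though it was set with earlier results of these data known. There were 60 members among 15953 genes listed, and 58 of them reached 1 CPM (1 read per 1000000 reads counted) in at least 1 library, as did 12618 genes in all. The study sequenced total RNA of mouse neural stem cells, the progenitors of neurons, astrocytes and oligodendrocytes, grown in suspension. There was 1 library from cells labelled Hikeshi cKO (conditional knockout) and 1 from cells labelled wild type, and the libraries are named here by those labels. Age, sex, strain, the Cre driver and the number of animals behind each library could not be taken from the labels. With 1 library per genotype there was no replicate and no test between genotypes, so every difference below is between these 2 libraries.

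Cargo proteins above a size limit cross the nuclear envelope through pores built of nucleoporins. Importins bind cargo in the cytoplasm and release it in the nucleus when they meet Ran loaded with GTP, while exportins bind cargo together with Ran-GTP and release it after GTP hydrolysis in the cytoplasm. RCC1 on chromatin loads Ran with GTP and RANGAP1 at the cytoplasmic face of the pore triggers hydrolysis, which gives the transport its direction. HIKESHI is a transport factor outside the importin families that carries HSP70 chaperones into the nucleus under heat stress. In the dividing cell many nucleoporins and Ran regulators also act at kinetochores and on the spindle.

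The libraries held 18912683 reads (cKO) and 18839079 reads (wild type). Hikeshi itself had 640 reads in the cKO library, against 718 in the wild-type library, a ratio of 0.888 (95% counting interval 0.797 to 0.989). Since the deleted part of the gene is not given, this level does not check the genotype. The libraries also differed in sex-linked expression, with 2931 reads of 4 Y-linked genes in the cKO library against 1 in the wild-type library. This difference runs with the genotype labels, so sex and genotype cannot be told apart in any result below. Among 8 neural stem cell markers, all of which passed 1 CPM, 2 passed 1.2-fold upward and 3 downward in the cKO library. The summed level of that list was 10135 TPM (a level corrected for gene length and depth) in the cKO library against 10588 TPM in the wild-type library. That sum joins opposite differences and does not show an equal stem cell content. Vim had 4877 TPM (cKO) against 2891 TPM (wild type), and Fabp7 4597 TPM (cKO) against 7039 TPM (wild type). All 8 oligodendrocyte lineage markers were at least 1.5-fold lower in the cKO library, with a summed level there of 16.0 TPM against 503 TPM in the wild-type library. The 6 astrocyte markers were likewise lower, at 438 TPM in the cKO library against 1109 TPM in the wild-type library. Of 6 neuronal markers 5 passed 1 CPM, with 0 higher and 1 lower at 1.2-fold and sums of 171 TPM (cKO) and 206 TPM (wild type). The lower one, Dcx, had 80 reads in the cKO library against 824 in the wild-type library (ratio 0.0967, 0.0759 to 0.122). The neuronal sums do not show this, because Map2 made up most of each, at 147 TPM (cKO) and 172 TPM (wild type). Of 5 microglial markers, 4 were among the genes listed and 0 passed 1 CPM. Of 4 endothelial markers, 2 were listed and 1 passed. Markers that were not listed could not be judged. In bulk RNA, fewer cells of a type and less RNA per cell cannot be told apart, and the part of cell composition in the results below was not tested.

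Transport genes were slightly and broadly higher in the cKO library. Of the 58 members above 1 CPM, 52 had a log2 difference (cKO over wild type, of CPM with 1 added) above 0, against 47.8% of all genes kept by the same filter. At least 1.2-fold higher were 25 members, or 43.1%, against a background of 16.9% of genes. At least 1.2-fold lower were 0 members, against a background of 23.9%. At the wider limit of 1.5-fold, 0 members were higher and 0 lower, where the background was 4.22% higher and 10.2% lower. The median log2 difference of the members was 0.23, and that of all kept genes was -0.02. The counting interval of the CPM ratio lay wholly above 1 for 40 members (28.1% of all kept genes) and wholly below 1 for 2 members (31.2% of all kept genes). These intervals cover counting error at most and compare libraries, not genotypes.

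Summed over the 60 members, the machinery took 8668 CPM in the cKO library against 7425 CPM in the wild-type library, a ratio of 1.17 (1.16 to 1.18). The sums of the role groups were not alike. Nucleoporins had a ratio of 1.22 (1.199 to 1.24), Ran cycle genes 1.19 (1.17 to 1.21), importins 1.17 (1.16 to 1.19) and exportins 1.08 (1.06 to 1.101). The same order held for the group medians of the log2 difference, at 0.28 for nucleoporins, 0.24 for Ran cycle genes, 0.19 for importins and 0.06 for exportins. The intervals of the sums count pooled reads and leave out the spread between genes. Log2 differences of single genes ran from 0.03 to 0.58 among nucleoporins and from -0.02 to 0.31 among exportins, so the groups overlapped.

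**Figure D1:**
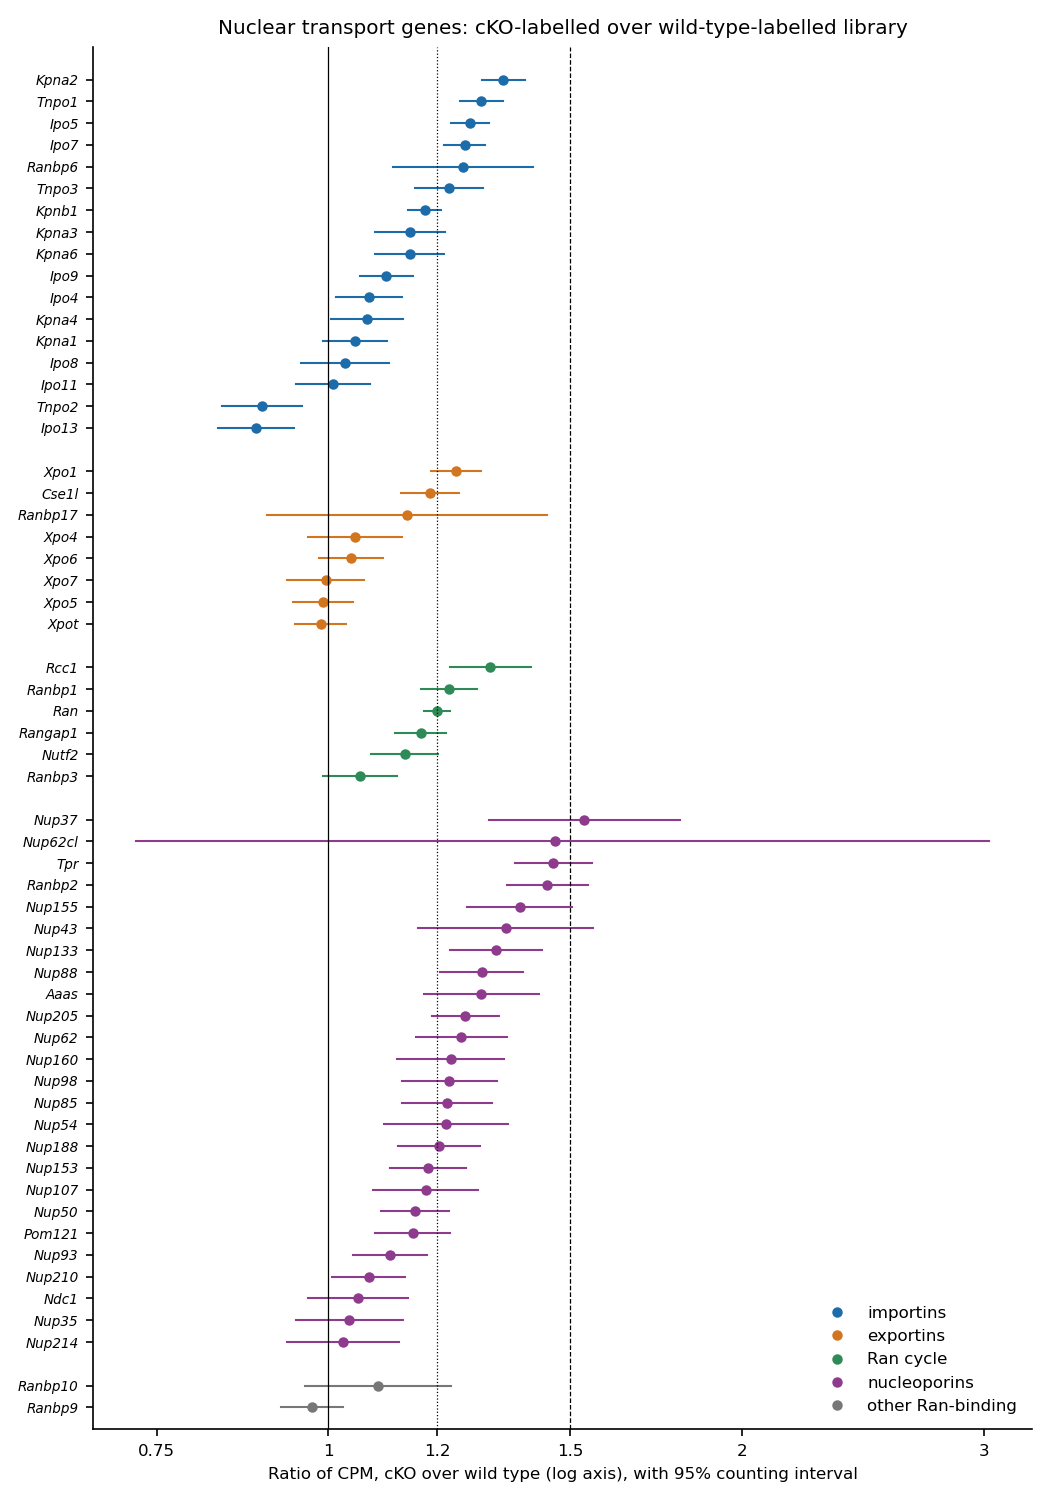
Ratio of CPM, cKO over wild-type library, for the 58 members above 1 CPM on a log axis; points are ratios, bars are 95% counting intervals, colours are role groups, and dotted and dashed lines mark 1.2-fold and 1.5-fold. Most points lie between 1 and 1.5, with Nup37 the farthest right at 1.53 and Ipo13 and Tnpo2 the farthest left at 0.886 and 0.895.

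**Figure D2:**
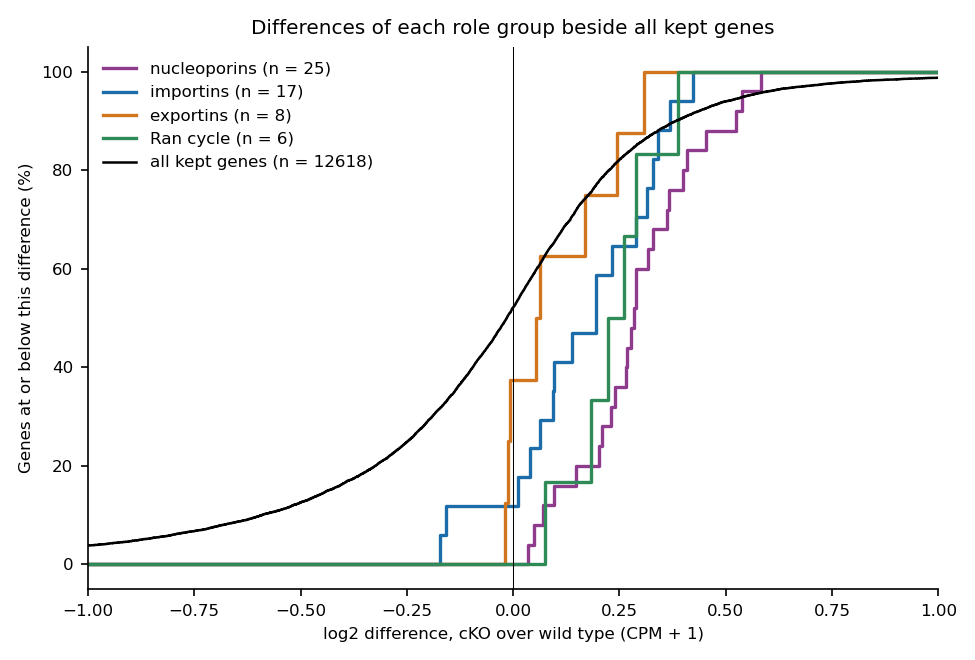
Cumulative share of genes at or below each log2 difference (cKO over wild type) for the 4 role groups and for all 12618 kept genes. All 25 nucleoporin members have a difference above 0 (median 0.28), while the 8 exportins have a median of 0.06 and all kept genes one of -0.02.

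Because many members were higher together, the sequences around their transcription starts were read from RefSeq on GRCm38.p6, as windows of 250 bases before to 50 bases after a start. The table held 55 windows for 47 of the 58 members, and overlapping windows of 1 gene share sequence. Shown are the windows of Kpna2, Nup37 and Xpo1, the highest member of the importins, nucleoporins and exportins, that of Ran, the hub of the system, and those of Xpo5 and Ipo13, which were not higher. Capitals mark matches, on either strand, to CCAAT (the NF-Y box), TTTGAA (the cell cycle homology region), CCGGAAG (an ETS site), TTTCCCGC (an E2F site), CGCATGCG (the core of an NRF1 site), CACGTG (the E-box bound by MYC) or GGGCGG (the GC box bound by SP1). The NRF1 core and the E-box read the same on both strands, and where matches touch or overlap their letters are capitals throughout.
Kpna2, chr11:106999476-106999775, minus strand: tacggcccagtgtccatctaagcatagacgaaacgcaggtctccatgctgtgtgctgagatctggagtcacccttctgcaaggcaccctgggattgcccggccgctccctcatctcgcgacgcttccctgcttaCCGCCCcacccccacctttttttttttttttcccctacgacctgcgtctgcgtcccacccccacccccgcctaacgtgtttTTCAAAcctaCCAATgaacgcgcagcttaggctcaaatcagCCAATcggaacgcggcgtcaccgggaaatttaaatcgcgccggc
Nup37, chr10:88146742-88147041, plus strand: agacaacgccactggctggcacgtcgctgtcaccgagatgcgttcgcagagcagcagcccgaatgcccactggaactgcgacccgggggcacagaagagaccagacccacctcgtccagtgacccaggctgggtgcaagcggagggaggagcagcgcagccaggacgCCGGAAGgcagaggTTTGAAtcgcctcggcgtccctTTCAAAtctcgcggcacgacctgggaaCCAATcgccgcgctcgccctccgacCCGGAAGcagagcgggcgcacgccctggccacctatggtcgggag
Xpo1, chr11:23255791-23256090, plus strand: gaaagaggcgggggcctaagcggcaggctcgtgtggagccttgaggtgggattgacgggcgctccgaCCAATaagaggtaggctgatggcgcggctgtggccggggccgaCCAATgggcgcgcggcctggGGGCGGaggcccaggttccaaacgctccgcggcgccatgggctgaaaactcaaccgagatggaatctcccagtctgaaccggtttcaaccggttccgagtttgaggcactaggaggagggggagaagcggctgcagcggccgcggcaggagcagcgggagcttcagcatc
Ran, chr5:129019906-129020205, plus strand: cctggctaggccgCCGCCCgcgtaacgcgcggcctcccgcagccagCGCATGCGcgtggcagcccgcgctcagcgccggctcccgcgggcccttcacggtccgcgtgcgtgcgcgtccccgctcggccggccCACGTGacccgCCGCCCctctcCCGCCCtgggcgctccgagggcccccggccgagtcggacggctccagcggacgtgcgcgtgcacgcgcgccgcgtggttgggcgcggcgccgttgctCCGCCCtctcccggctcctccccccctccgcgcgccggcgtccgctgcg
Xpo5, chr17:46202561-46202860, plus strand: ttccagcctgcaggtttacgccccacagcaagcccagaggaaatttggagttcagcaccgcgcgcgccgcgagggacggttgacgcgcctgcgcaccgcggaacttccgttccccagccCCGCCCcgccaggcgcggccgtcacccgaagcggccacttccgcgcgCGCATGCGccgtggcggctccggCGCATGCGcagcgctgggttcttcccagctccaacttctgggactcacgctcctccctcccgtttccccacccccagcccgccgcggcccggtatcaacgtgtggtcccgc
Ipo13, chr4:117914950-117915249, minus strand: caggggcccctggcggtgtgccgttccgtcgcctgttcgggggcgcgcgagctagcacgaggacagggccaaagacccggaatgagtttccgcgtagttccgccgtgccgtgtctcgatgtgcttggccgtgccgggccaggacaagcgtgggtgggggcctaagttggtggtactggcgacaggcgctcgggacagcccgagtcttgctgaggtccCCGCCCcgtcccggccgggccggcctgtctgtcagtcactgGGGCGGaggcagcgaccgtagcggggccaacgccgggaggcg

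The window of Kpna2 held a CCAAT pair, of which the upstream copy began 25 bases before the start, and a GC box farther upstream. It also held a TTTGAA match on the strand opposite to the printed one, shown as TTCAAA, beginning 35 bases before the start. Nup37 held a CCAAT at 20 bases before its upstream start, a pair of TTTGAA matches and a pair of ETS matches. Xpo1 held a CCAAT pair and a GC box. Ran held an NRF1 site, the MYC E-box and 4 GC boxes, Xpo5 a pair of NRF1 sites and a GC box, and Ipo13 a pair of GC boxes and no other match. A match is a run of letters and not a measured binding site. The windows shown were picked by gene, and the contrast among them does not hold for all members. Tnpo2, whose interval lay below 1, had a window with an NF-Y box and a cell cycle homology region match. Windows of Nup214, Ipo11 and Xpo6, whose intervals included 1, also held the NF-Y box. Rcc1, the highest Ran cycle gene, had a cell cycle homology region match and a GC box but no NF-Y box. Shares over all windows follow.

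Over all member windows, the NF-Y box was found in 24 of 55 (43.6%), beside 38.0% of the 13036 windows of kept genes and 37.4% of all 32851 windows. The cell cycle homology region was found in 13 (23.6%), beside 11.6% of kept-gene windows and 17.9% of all windows. The MYC E-box was in 9 member windows (16.4%), beside 9.83% and 7.15% of kept-gene and all windows. The NRF1 core was in 5 (9.09%), beside 3.77% and 1.87%, the ETS site in 9 (16.4%), beside 16.9% and 8.86%, and the E2F site in 2 (3.64%), beside 1.97% and 1.07%. GC boxes were in 37 windows (67.3%), beside 63.1% and 35.7%, and the TATA box, TATAAA, in 5 (9.09%), beside 6.69% and 13.6%. GAANNTTC, a pair of heat shock element units with N for any base, was in 3 of 55 member windows (5.45%), beside 5.56% of kept-gene and 7.86% of all windows. Of the 27 windows of members at least 1.2-fold higher, 13 held the NF-Y box (48.1%) and 8 the cell cycle homology region (29.6%). Of the 28 windows of the other members 11 held the NF-Y box (39.3%) and 5 the cell cycle homology region (17.9%). The heat shock pair was in 3 of the 27 higher-member windows (11.1%) and 0 of the 28 other-member windows, and in the same way the NRF1 core in 1 (3.70%) and 4 (14.3%), the ETS site in 6 (22.2%) and 3 (10.7%), and the TATA box in 4 (14.8%) and 1 (3.57%). The GC box was in 17 (63.0%) and 20 (71.4%), the MYC E-box in 4 (14.8%) and 5 (17.9%), and the E2F site in 1 (3.70%) and 1 (3.57%), of higher-member and other-member windows. These shares are descriptions with no test. The heat shock and NRF1 motifs were shortened after longer forms had been searched. The longer heat shock form was in no member window, so the split of its shorter form was not planned beforehand.

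Among the importins, 6 of 17 (35.3%) passed 1.2-fold upward and 0 downward, against 16.9% and 23.9% of all kept genes. Importin alpha proteins are adaptors that read the classical nuclear localisation signal and hand the cargo to importin beta. Kpna2 (Entrez 16647, chromosome 11, 106988629 to 106999525) is the importin alpha most abundant in mouse embryonic stem cells and in many dividing cells. It had 7003 reads in the cKO library against 5202 in the wild-type library, a 1.34-fold higher CPM (1.29 to 1.39). Its log2 difference was 0.42, and 0.36 with the GC trend of all genes subtracted. The other importin alpha genes differed by less. Kpna3 had 2431 reads (cKO) against 2112 (wild type) (ratio 1.15, 1.08 to 1.22) and Kpna6 2468 reads (cKO) against 2146 (wild type) (1.15, 1.08 to 1.21). Kpna4, at 2200 reads (cKO) against 2054 (wild type), had a ratio of 1.07 (1.004 to 1.13). With the GC trend of all genes subtracted, the log2 difference was 0.03 in place of 0.20 for Kpna3 and -0.01 in place of 0.09 for Kpna4. Kpna1, the subtype that in mouse becomes prominent when stem cells turn into neurons, had 2802 reads (cKO) against 2671 (wild type), and its interval included 1 (ratio 1.04, 0.991 to 1.102).

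The balance within the importin alpha family can be read from TPM, which compares levels between genes per length. Kpna2 made up 63.3% of the family's TPM in the cKO and 58.5% in the wild-type library. Kpna1 made up 9.68% (cKO) and 11.5% (wild type), and Kpna4 10.1% (cKO) and 11.7% (wild type). TPM carries no depth, so these shares have no interval.

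Importin beta and its relatives carry cargo directly or through an adaptor. Kpnb1, importin beta itself, which works with importin alpha, had 11420 reads in the cKO library against 9682 in the wild-type library (ratio 1.17, 1.14 to 1.21). Tnpo1, transportin, which imports RNA-binding proteins, had 6881 reads (cKO) against 5306 (wild type) (ratio 1.29, 1.25 to 1.34). Ipo5, an importer of ribosomal proteins and histones, had 8895 reads (cKO) against 6990 (wild type) (1.27, 1.23 to 1.31). For Ipo5 the log2 difference was 0.34, and 0.29 with the GC trend subtracted. Its near relative Ranbp6 (1.25, 1.11 to 1.41), Ipo7 (1.26, 1.21 to 1.301), also an importer of ribosomal proteins and histones, and Tnpo3 (1.22, 1.16 to 1.296), the importer of SR splicing factors, completed the members past 1.2-fold.

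The only members whose interval lay wholly below 1 were importins as well. Ipo13, which carries cargo in both directions, had 1824 reads in the cKO library against 2050 in the wild-type library (ratio 0.886, 0.832 to 0.944). Tnpo2, the close relative of transportin, had 1666 reads (cKO) against 1854 (wild type) (0.895, 0.837 to 0.957), the opposite direction to Tnpo1. Both ratios stayed within 1.2-fold. With the GC trend subtracted, the log2 difference was -0.08 in place of -0.17 for Ipo13 and -0.10 in place of -0.16 for Tnpo2. For Tnpo2 an antisense gene overlaps 666 exon bases in GENCODE, and since the strand setting is not given, reads of the pair may not be separable. The same limit holds for members with ratios above 1. Antisense genes overlap 665 exon bases of Pom121, 466 of Kpnb1, 461 of Nup133 and 411 of Tnpo3. Ipo8 and Ipo11 had intervals that included 1, with ratios of 1.03 (0.955 to 1.11) and 1.01 (0.947 to 1.07).

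Of the 8 exportins, 1 (12.5%) passed 1.2-fold upward, a share below the 16.9% of all kept genes, and 0 passed it downward. Xpo1, or CRM1, exports proteins with leucine-rich signals and is the main exporter of the cell. It had 5118 reads in the cKO library against 4116 in the wild-type library, 1.24-fold higher (1.19 to 1.29), which with the GC trend of all genes subtracted came to a log2 difference of 0.15 in place of 0.31. Cse1l, which returns importin alpha to the cytoplasm, had 3609 reads (cKO) against 3031 (wild type) (ratio 1.19, 1.13 to 1.25), or a log2 difference of 0.24, and 0.14 with the GC trend subtracted. Of the RNA exporters, Xpot, the carrier of tRNA, had 4240 reads (cKO) against 4280 (wild type) (0.987, 0.946 to 1.03), with a log2 difference of -0.02 that came to -0.10 with the GC trend subtracted. Xpo5, the carrier of microRNA precursors, had 3119 reads (cKO) against 3134 (wild type) (0.991, 0.943 to 1.04). Xpo7 (0.996, 0.933 to 1.06), Xpo6 (1.04, 0.984 to 1.096), the exporter of actin with profilin, and Xpo4 (1.05, 0.966 to 1.13) also had intervals that included 1.

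Ranbp17, a relative of Xpo7 with a low level, gave different answers by count and by TPM. It had 158 reads in the cKO library against 138 in the wild-type library (ratio 1.14, 0.902 to 1.44), but deposited TPM of 3.83 (cKO) against 2.59 (wild type), a ratio of 1.48. The gene length implied by the deposited read count and FPKM was 3555 bases in the cKO library against 4578 bases in the wild-type library, a ratio of 0.776. Over the other members kept, this ratio of implied lengths ranged from 0.957 for Nup214 to 1.04 for Ipo11.

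The 7 Ran cycle genes had the largest summed level of the role groups, 1835 TPM in the cKO library against 1535 TPM in the wild-type library. Ran (Entrez 19384, chromosome 5, 129020156 to 129024322) had the highest level of all members in each library, 767 TPM (cKO) and 638 TPM (wild type). In reads it had 17649 reads (cKO) against 14665 (wild type), a ratio of 1.199 (1.17 to 1.23). That ratio lies next to the 1.2-fold limit, and on the scale with 1 CPM added Ran fell just under it. Ranbp1, which helps RANGAP1 to strip Ran-GTP from transport receptors, had 3963 reads (cKO) against 3226 (wild type) (1.22, 1.17 to 1.28). Its level was the second highest, at 625 TPM (cKO) and 515 TPM (wild type).

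Of the 2 enzymes that set the Ran gradient, the nuclear exchange factor gene Rcc1 had 1970 reads in the cKO library against 1496 in the wild-type library. Its CPM was 1.31-fold higher (1.23 to 1.404), the largest ratio of the group. The cytoplasmic activator gene Rangap1 had 4669 reads (cKO) against 3984 (wild type) (1.17, 1.12 to 1.22). Nutf2, which brings Ran-GDP back into the nucleus, had 2598 reads (cKO) against 2278 (wild type) (1.14, 1.07 to 1.202), and Ranbp3, a cofactor of Xpo1, 2060 reads (cKO) against 1947 (wild type) (1.05, 0.990 to 1.12). Rcc1 shares 135 exon bases with the noncoding gene Snhg3, which is transcribed from the same strand and is not listed in the table used. Ranbp3l, with 1 read in the cKO library against 4 in the wild-type library, did not reach 1 CPM. Ranbp9 and Ranbp10 carry the Ranbp name but are not transport receptors, and they had ratios of 0.973 (0.924 to 1.03) and 1.09 (0.961 to 1.23).

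**Figure D3:**
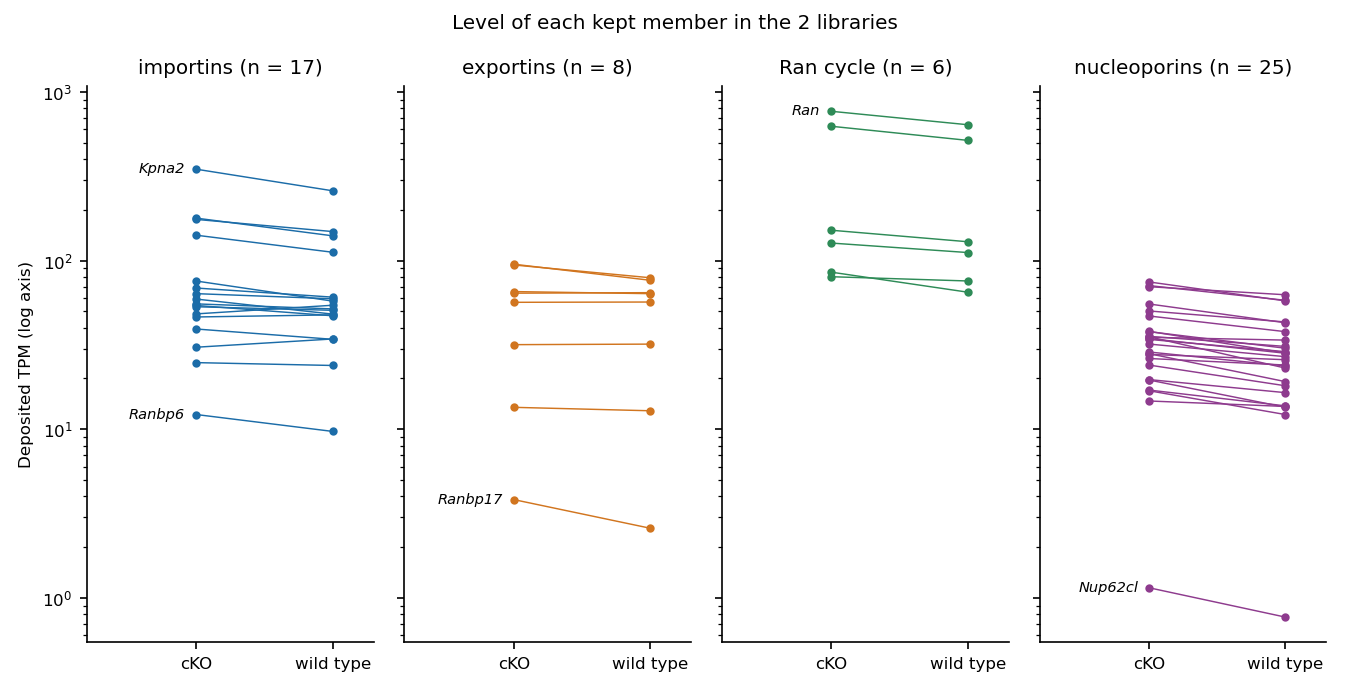
Deposited TPM of each member above 1 CPM on a log axis, by role group, without Ranbp9 and Ranbp10, which are not drawn. The cKO library stands left of the wild-type one, and a line joins the values of a gene. Ran leads at 767 TPM (cKO) against 638 TPM (wild type), and the nucleoporins lie between 14.7 and 74.7 TPM in the cKO library apart from Nup62cl at 1.15 TPM.

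All 25 nucleoporins above 1 CPM among the members had a log2 difference above 0, against 47.8% of all kept genes. At least 1.2-fold higher in the cKO library were 16 of them (64%), against 16.9% of all kept genes. The interval lay above 1 for 21 of them, against 28.1% of all kept genes. Pore proteins under other symbols are not among them, and of these Seh1l and Nupl2 had ratios below 1, at 0.959 (0.903 to 1.02) and 0.952 (0.794 to 1.14). The summed level of the 26 nucleoporin members was 875 TPM (cKO) and 714 TPM (wild type), between that of the exportins, 424 TPM (cKO) and 388 TPM (wild type), and that of the importins, 1475 TPM (cKO) and 1239 TPM (wild type). Nup37 (Entrez 69736, chromosome 10, 88146976 to 88178395), a small subunit of the Y-shaped scaffold complex, had 396 reads (cKO) against 257 (wild type), a 1.53-fold higher CPM (1.31 to 1.803). With 1 CPM added its log2 difference of 0.58 fell just short of the 1.5-fold limit.

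Large nucleoporins of the faces of the pore followed. Tpr (chromosome 1, 150392802 to 150449935), the filament protein of the nuclear basket, had 2364 reads in the cKO library against 1615 in the wild-type library (ratio 1.46, 1.37 to 1.55). Ranbp2 (chromosome 10, 58446852 to 58494155), the giant cytoplasmic filament protein that holds SUMO-modified RANGAP1 at the pore, had 2088 reads (cKO) against 1441 (wild type) (1.44, 1.35 to 1.54). Beside Nup37, these had the largest log2 differences of the nucleoporin members, but with the GC trend subtracted Ranbp2 came to 0.37 in place of 0.52, below Nup62 at 0.41. The other basket genes were closer to 1, Nup153 at 2125 reads (cKO) against 1791 (wild type) (1.18, 1.11 to 1.26) and Nup50 at a ratio of 1.16 (1.09 to 1.22).

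In the Y complex, which coats both faces of the pore, 5 of the 6 member genes (83.3%) were at least 1.2-fold higher. The background was 16.9% of all kept genes. The median log2 difference of the member genes of the complex was 0.34. Its subunits Seh1l and Sec13, outside the symbols of the rule, were not, with ratios of 0.959 and 1.02 (0.965 to 1.07). After Nup37 came Nup43 (ratio 1.35, 1.16 to 1.56) and Nup133 (1.32, 1.23 to 1.43), and the lowest was Nup107 (1.18, 1.08 to 1.29). In the inner ring, the scaffold of the channel, 3 of 5 genes (60%) passed 1.2-fold upward (median 0.26), beside the same background of 16.9%. The widest difference there was that of Nup155 at 1199 reads (cKO) against 867 (wild type) (1.38, 1.26 to 1.505) and the smallest that of Nup35 (1.04, 0.947 to 1.13). The 3 central channel members, Nup62, Nup54 and Nup62cl, passed 1.2-fold, but Nup62cl did so on 22 reads (cKO) against 15 (wild type), with an interval of 0.724 to 3.03. The channel partner of Nup62 and Nup54, Nupl1, also called Nup58 and not a member by symbol, had a ratio of 1.16 and stayed under the limit.

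Nup62, whose phenylalanine-glycine repeats fill the channel, had 1515 reads in the cKO library against 1208 in the wild-type library (ratio 1.25, 1.16 to 1.35). Its transcript overlaps exons of Il4i1 and Atf5, which had 8 and 570 reads in the cKO and 0 and 700 reads in the wild-type library. Nup98, a mobile nucleoporin with GLFG repeats whose transcript also encodes a Y complex subunit, had 1389 reads (cKO) against 1130 (wild type) (1.22, 1.13 to 1.33). On the cytoplasmic side Nup88 (1.29, 1.21 to 1.39) and Aaas (1.29, 1.17 to 1.42), which encodes ALADIN, were higher, while Nup214, the partner of Nup88, had a ratio of 1.02 (0.933 to 1.12).

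The membrane-spanning nucleoporins had the lowest median of the pore sub-groups, at 0.10. Past 1.2-fold upward were 0 of 3, where 16.9% of all kept genes passed. Nup210, which in mouse rises as neural and muscle progenitors differentiate, had 2174 reads in the cKO library against 2024 in the wild-type library (1.07, 1.01 to 1.14). Pom121 (1.15, 1.08 to 1.23) and Ndc1 (1.05, 0.966 to 1.14) were the others, and Nup210l, with 17 reads (cKO) against 18 (wild type), did not reach 1 CPM. Read counts of Tpr, Pom121 and Xpo4 carried decimals in the deposited table and so are estimates, not whole reads.

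Pore and transport genes outside the symbols of the rule were less uniform. Of 10 further pore-associated genes 7 lay above 0, 2 passed 1.2-fold upward and 0 downward, with a median log2 difference of 0.13. That upward count is near the background of 16.9% of all kept genes, and 47.8% of those lay above 0. The higher ones were Ahctf1, or ELYS, which seeds pores on chromatin (ratio 1.35, 1.24 to 1.46), and Rae1 (1.23, 1.14 to 1.32), an mRNA export and spindle factor. Seh1l and Sec13, given above with the Y complex, also serve outside the pore. The 16 further transport factors had 10 above 0, with 4 (25%) past 1.2-fold upward and 2 downward (median 0.03). The background was 16.9% upward and 23.9% downward. Senp2, a SUMO protease bound to the pore, was at 1.47 (1.36 to 1.58) and Nmd3, the export adaptor of the large ribosomal subunit, at 1.404 (1.29 to 1.53). Snupn, the import adaptor of spliceosomal snRNPs, was at 0.746 (0.643 to 0.866), and Nxt2, a partner in mRNA export, at 0.829 (0.756 to 0.908).

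Of 14 genes listed for mRNA export, mostly of the TREX machinery, 1 (7.14%) passed 1.2-fold upward and 1 downward (median 0.11). Gle1 is counted both here and among the further pore-associated genes above. The background was 16.9% of all kept genes upward and 23.9% downward, so neither count exceeds it. The genes past the limit were Thoc2 (1.36, 1.23 to 1.49) and Chtop (0.794, 0.768 to 0.821). Among 16 genes of the nuclear lamina and envelope 7 (43.8%) passed 1.2-fold upward and 0 downward (median 0.21), beside the same background. Syne1, a nesprin that ties the nucleus to the cytoskeleton, was at 1.799 (1.67 to 1.94) and Lmna, lamin A, at 1.77 (1.66 to 1.895), both higher in the cKO library.

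**Figure D4:**
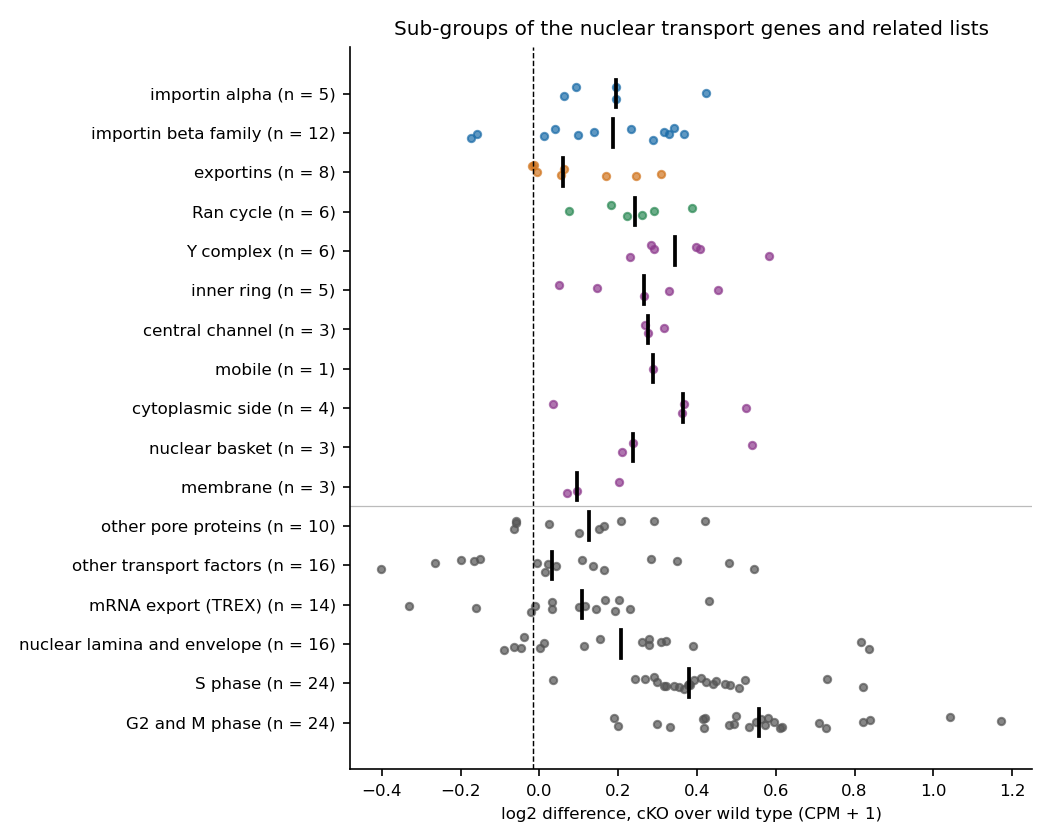
Log2 difference (cKO over wild type) of each gene above 1 CPM in the sub-groups of the transport machinery, above the grey line, and in related lists, below it; bars are medians and the dashed line is the median of all kept genes, -0.02. The medians lie at 0.34 for the Y complex, 0.10 for membrane nucleoporins, 0.38 for S phase and 0.56 for G2 and M phase.

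Cell cycle genes differed in the same direction, with larger medians. Of 24 S phase genes 22 passed 1.2-fold upward and 0 downward in the cKO library (median 0.38). Of 24 G2 and M phase genes 22 were higher and 0 lower (median 0.56). Among all kept genes 16.9% passed upward and 23.9% downward. Heat shock genes, whose main family is the cargo of Hikeshi, had 18 of 20 past 1.2-fold upward and 0 downward (median 0.60), with Hspa1b at 2075 reads in the cKO library against 68 in the wild-type library. Hspa1b has a near-identical copy, Hspa1a, so the division of reads between them is uncertain. These values stand beside each transport group above, and the part of cell cycling or of heat shock in the transport genes was not tested.

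Base composition also moved with the difference. Over all kept genes the median log2 difference was 0.12 in the 1243 genes of lowest transcript GC content and -0.10 in the 1243 of highest. The members had a median GC content of 47.5%, against 50.9% for all kept genes with a value. Across the 58 members GC content and log2 difference had a Pearson r of -0.27 and a Spearman rho of -0.24, which is across genes of the same pair of libraries and no test. Of the 58 members 50 lay above the median of all genes in their own GC class, of 10 classes. Xpo1, Cse1l, Kpna3 and Kpna4, whose values with the GC trend subtracted stand above, had GC contents of 38.8%, 41.6%, 39.6% and 41.9%. Rangap1, at a GC content of 55.7%, came to 0.29 with the trend subtracted, in place of 0.22.

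**Figure D5:**
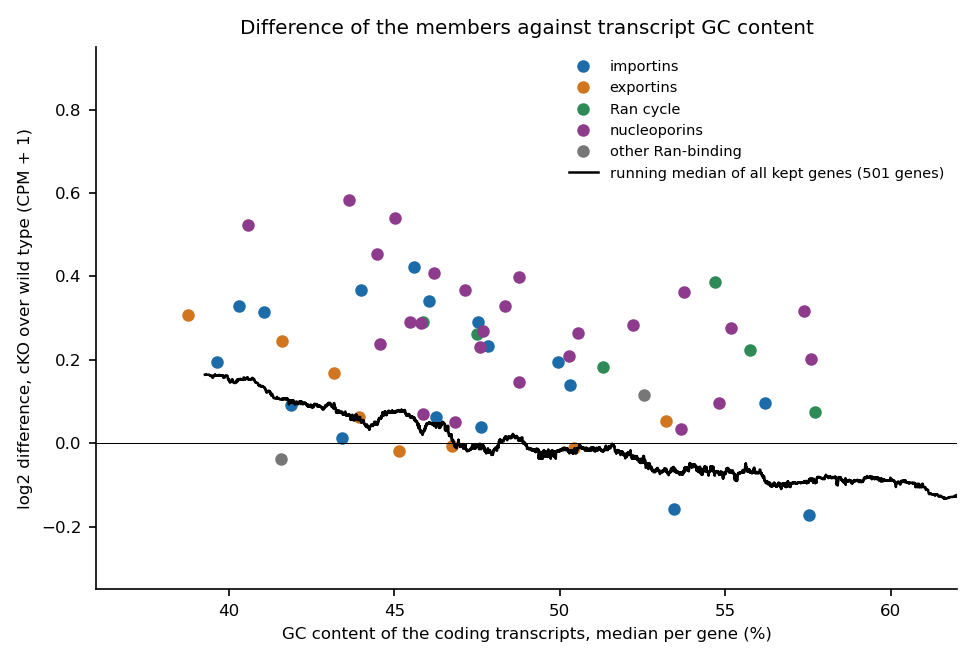
Log2 difference (cKO over wild type) of each member above 1 CPM against its transcript GC content in percent; the line is the running median of all kept genes. Of the 58 members 50 lie above the median of all genes in their own GC class, a median by classes that is not the line drawn. Xpo1 sits at the far left at 38.8%.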

How the data were processed

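Total RNA of mouse neural stem cells in suspension was sequenced, 1 library per genotype label. The authors deposited 1 table on GRCm38.p6, per the submitters' processing notes. Its estimated counts per gene, TPM, FPKM and a normalized read count (a signal) are named so per the file headers. Of the deposited estimated counts, 89.8% (cKO) and 90.0% (wild type) were whole. No source used here names the aligner, counter, annotation or strand setting.

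Estimated counts were rounded and divided by library totals to give CPM. Genes reaching 1 CPM in at least 1 library were kept. Differences are log2 of CPM with 1 added, which understates low genes, and 1.2-fold and 1.5-fold limits apply to that scale. Ratios are of CPM without the added value. Their 95% intervals are exact conditional binomial (Clopper-Pearson) limits (scipy 1.17.1), tested on simulated data. They cover counting error at most, and they may be too narrow because PCR copies may be counted more than once. Alternative scalings used edgeR 4.0.16 and DESeq2 1.42.0 factors. GC content came from GENCODE M21 transcripts and was available for 98.5% of kept genes. Coordinates and promoters came from RefSeq tables of GRCm38.p6.

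The members, lists, motifs and limits were chosen with earlier results of these data known. Named were fixed anchors (Ran and its regulators, main receptors, selected nucleoporins), the extremes of each role group, and up to 2 genes per direction of each further list. Other members, and Seh1l, Sec13 and Nupl1, were named after their values were seen. The NRF1 and heat shock motifs were shortened to their cores after longer forms had been searched, which fewer windows of all genes held, and the longer heat shock form was in no member window.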

Additional observations from a re-analysis of the deposited data

How the results depend on the processing

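With 1 library per genotype, no replicate could be left out. No paired analysis was possible because each genotype had 1 library. The 9 alternatives were no filter, a minimum of 5 CPM, TMM or DESeq2 factors, the deposited normalized read count, deposited TPM, pseudocounts of 0.25 and 5, and subtraction of the GC trend. The count of members at least 1.2-fold higher ranged from 22 to 27 beside 25 as reported, and that at least 1.2-fold lower was 0 in each. The median log2 difference of the members ranged from 0.21 (GC trend subtracted) to 0.25 (TMM), and exceeded that of all genes by 0.21 to 0.25. Group medians ranged from 0.27 to 0.31 (nucleoporins), 0.22 to 0.26 (Ran cycle), 0.18 to 0.22 (importins) and 0.04 to 0.08 (exportins). At least 1.5-fold higher was 1 member, in place of 0, with TMM factors, DESeq2 factors, the deposited normalized read count, deposited TPM or a pseudocount of 0.25. That member was Nup37, whose log2 difference in these was 0.60 to 0.61. Of 243 values of single members under these alternatives, 234 stayed within the half-width of the counting interval and 9 moved beyond it, all with the GC trend subtracted. Depth limits the low members: 22 reads (cKO) against 15 (wild type) for Nup62cl cannot show a 1.2-fold difference.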
